A study of Homo sapiens with 6 samples.

Results

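The replication-dependent histone genes encode the core histones H2A, H2B, H3 and H4 and the linker histone H1 that package new DNA, and they lie in clusters of short, mostly intronless copies. Their symbols were matched in the gene table: protein-coding genes named H1-1 to H1-6, or with names starting H2AC, H2BC, H3C or H4C, without pseudogenes. The pattern covered 70 genes, of which 56 were listed among the 28495 genes of the table. The listed genes comprised 4 H1, 15 H2A, 17 H2B, 8 H3 and 12 H4 copies, with 43 on chromosome 6 and 11 on chromosome 1.

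The RNA came from NCI-H1299, an established human lung cancer cell line, and each group held 3 libraries. By the labels, the silencing target of the sh-CFB group was CFB, and the sh-NC group was the control. CFB is the gene of complement factor B, a protease of the alternative complement pathway. The sample titles write sh while the table's column names write si, and which kind of reagent was used is not resolved. Both groups are the same single line, and nothing in the labels says whether the libraries of a group came from separate cultures, so a p-value here speaks to the spread among these libraries, which may be technical. Total RNA was turned into libraries with a stranded mRNA kit, which selects RNA with a poly(A) tail.

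Most replication-dependent histone mRNAs are the exception among messenger RNAs in having no poly(A) tail. A stem-loop just past the stop codon is bound by SLBP, the stem-loop binding protein, and the transcript is cut after it by a complex that includes CPSF3, the endonuclease also used at poly(A) sites. Their levels peak in S phase, when DNA is copied. A few copies also make longer, polyadenylated mRNAs from a poly(A) site further downstream, and these can be present outside S phase. A library selected on poly(A) is therefore enriched for the polyadenylated transcripts of each copy, and the stem-loop ended mRNA was not measured as such. How much of a copy's FPKM came from either form was not tested. From general knowledge, and not from the files, 6 copies were put on a list of genes known to make polyadenylated mRNA: H1-2, H2AC6, H2BC4, H2BC5, H2BC12 and H2BC21. Earlier results of these data were known when the list was made, so it is not independent of them. The other 50 listed copies are called the other copies.

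The annotated ends of the copies show what a longer annotated transcript can hold. In GENCODE 29 32 of the 56 copies were annotated past the stop codon at all and a histone stem-loop was found in 28 of these, among them 27 of the 28 annotated at least 60 bases past it. Copies annotated only to the stop codon had no sequence to search. In all, 22 copies were annotated more than 200 bases past the stop codon or spliced past it. The stem-loops of 6 copies described below are given on the gene's strand, 5′ to 3′, on GRCh38, with the 16 bases of stem and loop in capitals and 5 bases on either side. They are shown because these copies carry a stem-loop inside an annotated transcript that runs on beyond it, in some by as few as 35 bases.
H2AC25 (chr1:228457364-228457389, minus strand): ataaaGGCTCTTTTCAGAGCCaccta
H2BC21 (chr1:149886183-149886208, minus strand): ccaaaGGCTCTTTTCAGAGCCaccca
H2AC18 (chr1:149842218-149842243, minus strand): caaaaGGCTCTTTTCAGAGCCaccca
H2AC6 (chr6:26124664-26124689, plus strand): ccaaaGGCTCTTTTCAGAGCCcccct
H2BC5 (chr6:26158582-26158607, plus strand): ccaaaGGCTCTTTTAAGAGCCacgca
H4C9 (chr6:27139649-27139674, plus strand): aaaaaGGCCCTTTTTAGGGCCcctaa
The capitals of the first 4 read the same and occurred in 15 copies, those of H2BC5 occurred in 4 copies and those of H4C9 in 3. The transcript of H2BC21 was annotated for a further 1729 bases past the stem-loop, that of H2AC6 for 1114, that of H2AC25 for 390, that of H4C9 for 212, that of H2BC5 for 39 and that of H2AC18 for 35. The annotated H2BC5 and H2AC6 genes also have transcripts spliced past the stop codon. The longest H2BC5 transcript, with 384 bases past the stop codon, does not hold the stem-loop. H1-2 and H2BC12 were annotated only as far as the stop codon, so no stem-loop was looked for there.

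The gene table gave FPKM, fragments scaled by gene length and by library size. The steps of the values gave 26.2 to 38.4 M reads per library in sh-CFB and 32.9 to 40.0 M in sh-NC (M, 1e6). CFB itself was barely detected, with 2 reads in sh-CFB over 3 libraries and 12 reads in sh-NC (two-sided exact permutation test on FPKM, p = 0.2, where 0.1 is the smallest p that 3 libraries against 3 allow), so its level checks the labels weakly. Of 6 lung adenocarcinoma markers 5, among them NKX2-1 and NAPSA, were under 0.5 FPKM in all 6 libraries or not listed, as were all immune, fibroblast, endothelial and erythroid markers. Of 5 epithelial markers EPCAM, CDH1 and KRT19 were under 0.5 FPKM, and with KRT8 and KRT18 the list summed to 178.2 to 257.9 FPKM in sh-CFB and 170.4 to 253.8 FPKM in sh-NC. The mesenchymal markers VIM, CDH2 and FN1 summed to 395.2 to 481.1 FPKM in sh-CFB and 386.2 to 448.9 FPKM in sh-NC. The libraries differed in how a gene's level moved with its GC content: across genes, Spearman's rho between GC content and a library's deviation from the gene mean was 0.60, -0.10 and -0.16 in sh-CFB libraries 1, 2 and 3, against -0.55, -0.25 and 0.23 in sh-NC libraries 1, 2 and 3. The part of this in the results was not tested, and values from a fit that removes the trend with GC content and length are given beside them.

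Of the 56 listed histone genes, 31 had a mean of at least 0.5 FPKM over the 6 libraries and were tested, and 25 did not reach it. In sh-CFB 6 of the 31 tested copies rose, none fell and 25 did not pass (limma on log2(FPKM + 0.5), Benjamini-Hochberg adjusted p under 0.05 over all 12466 tested genes). Of all tested genes 1.74% were called higher in sh-CFB and 5.71% lower. At an unadjusted p under 0.05 8 copies were higher and 1 lower, beside 7.28% of all tested genes higher and 18.6% lower. The 6 that rose were H1-2, H2AC25, H2BC21, H2BC5, H2AC18 and H2AC6, with log2 fold changes between 0.54 and 1.13 on the log2(FPKM + 0.5) scale. The median over the 31 tested copies was 0.15, beside -0.15 for all tested genes, and it was 0.02 without sh-CFB library 1, 0.23 without sh-CFB library 2 and 0.28 without sh-CFB library 3. Without sh-CFB library 2, or without sh-NC library 2, 0 copies passed, and over all genes 39 and 20 passed, against 929 with every library.

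**Figure D1:**
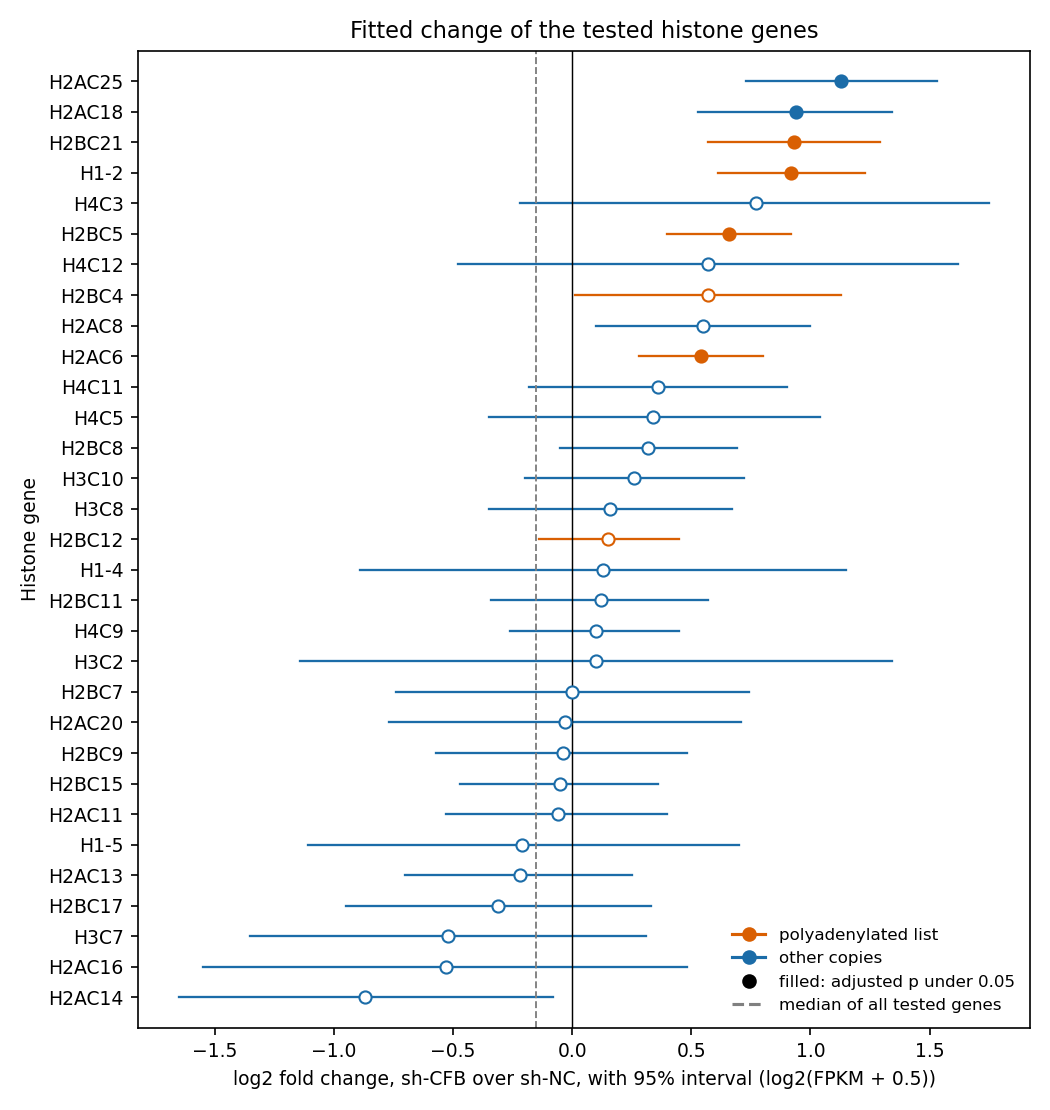
Log2 fold change of the 31 tested histone genes, sh-CFB over sh-NC, on the log2(FPKM + 0.5) scale, with 95% intervals; filled points passed at an adjusted p under 0.05, orange marks copies on the polyadenylated list and the dashed line is the median of all tested genes. The 6 filled points lie between 0.54 and 1.13, and 4 of them are orange.

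H1-2 is a linker histone gene of the large chromosome 6 cluster (chr6:26055787-26056428, minus strand, ENSG00000187837). It was at 152.3, 134.3 and 124.6 FPKM in sh-CFB libraries 1, 2 and 3, against 62.1, 71.8 and 83.8 FPKM in sh-NC libraries 1, 2 and 3. Every sh-CFB library stood above every sh-NC library, and H1-2 had the highest mean of all 56 copies in sh-CFB, at 137.1 FPKM, whereas in sh-NC its 72.6 FPKM was below the 94.0 FPKM of H2BC12. Its log2 fold change was 0.92 ± 0.13 (SE, n = 3 each, adjusted p = 0.0131), and 0.84 after the GC and length correction. The other H1 copies were far lower. H1-4, a further somatic H1 gene, was at 5.04, 2.25 and 1.09 FPKM in sh-CFB and 2.74, 1.33 and 2.62 FPKM in sh-NC, so its groups overlapped (0.13 ± 0.44, adjusted p = 0.886). H1-5 did not pass either (-0.21, adjusted p = 0.782), and H1-3 stayed under 0.5 FPKM in all 6 libraries.

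Among the H2A copies, 3 of 9 tested rose. H2AC25, an H2A gene of the small cluster at chr1:228456979-228457873 on the minus strand (ENSG00000181218), had the highest log2 fold change of the 31 tested copies in this fit. H2AC18 was above it with a pseudocount of 0.1 (1.40, against 1.15 for H2AC25) and with voom (1.53 against 1.14), and H2BC21 after the GC and length correction (1.19 against 1.05). H2AC25 was at 46.2, 32.3 and 34.1 FPKM in sh-CFB and at 13.7, 18.1 and 18.8 FPKM in sh-NC (1.13 ± 0.17, adjusted p = 0.0137). H2AC25 was not on the polyadenylated list, although its annotated transcript runs 390 bases past the stem-loop and ends near an ATTAAA poly(A) signal. No other copy outside the list had a mean above 10 FPKM over the 6 libraries.

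H2AC6, on the list and at chr6:26124145-26139116 on the plus strand (ENSG00000180573), was at 11.8, 13.6 and 13.8 FPKM in sh-CFB and 8.77, 9.38 and 8.32 FPKM in sh-NC. The groups did not overlap, and the log2 fold change was 0.54 ± 0.11 (adjusted p = 0.0321). Among the fits that left out 1 library, H2AC6 passed only without sh-CFB library 1 (adjusted p = 0.0319). It did not pass with voom (adjusted p = 0.0736).

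H2AC18 was far lower, at 1.39, 1.31 and 1.14 FPKM in sh-CFB and 0.323, 0.592 and 0.387 FPKM in sh-NC (0.94 ± 0.18, adjusted p = 0.0237). These values came from 68 reads in sh-CFB and 27 in sh-NC. Its coding sequence is identical to that of H2AC19, a neighbouring copy on chromosome 1, so reads could be split between them and the pair is uncertain. H2AC19, below the filter, was at 0.473, 0.584 and 0.461 FPKM in sh-CFB, all above its 0, 0.266 and 0.323 FPKM in sh-NC. H2AC18 did not pass in any fit that left out 1 library.

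The remaining 6 tested H2A copies ran from -0.87 to 0.55. H2AC8, the next most abundant, was at 12.7, 10.6 and 9.41 FPKM in sh-CFB and 6.08, 6.33 and 9.66 FPKM in sh-NC, with 1 sh-NC library inside the sh-CFB range (0.55 ± 0.19, adjusted p = 0.126). H2AC14 had the lowest value of the 31 (-0.87 ± 0.34, adjusted p = 0.159), from 27 reads in sh-CFB and 78 in sh-NC. It was called lower once GC content and length were corrected for (-1.09, adjusted p = 0.0361). The median over the 9 H2A copies was -0.03, and 0.20 after that correction.

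**Figure D2:**
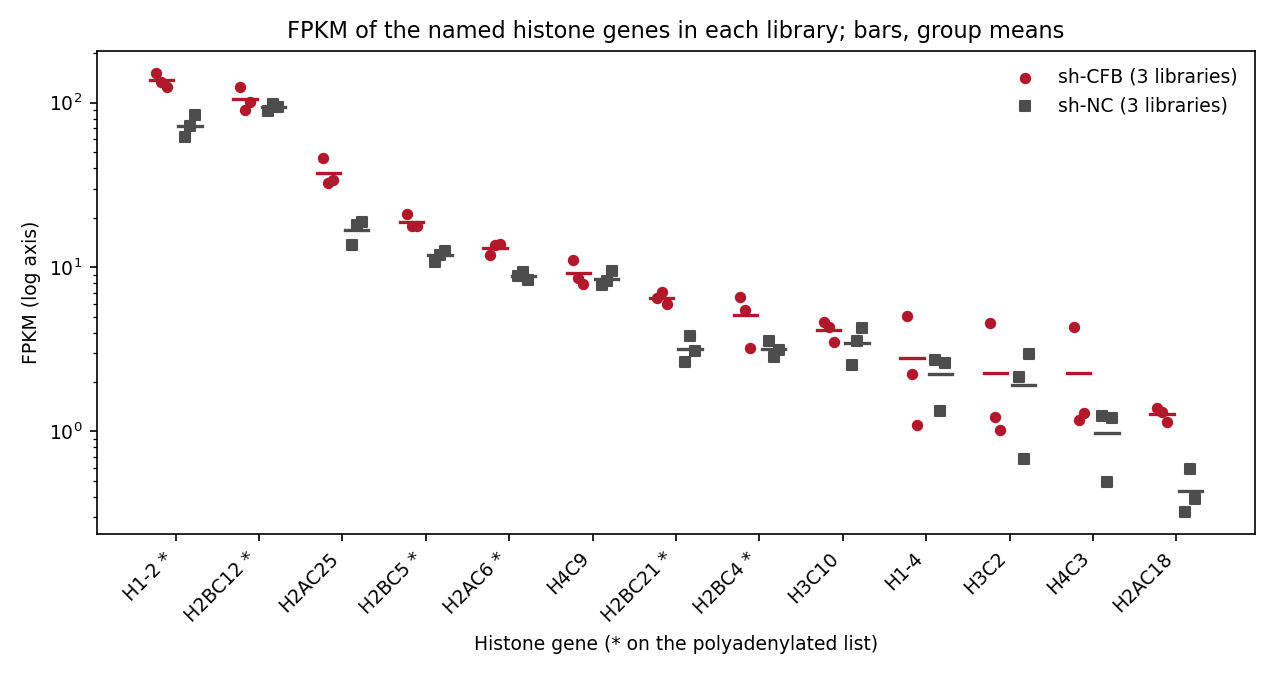
FPKM (log axis) of 13 histone genes in each of 6 libraries, sh-CFB as circles and sh-NC as squares, with bars at the group means; an asterisk marks the polyadenylated list. H1-2, H2AC25, H2BC5, H2AC6, H2BC21 and H2AC18 have all 3 circles above all 3 squares, and the other 7 genes overlap.

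Of 10 tested H2B copies 2 rose, both on the polyadenylated list. H2BC21 lies at chr1:149884459-149886652 on the minus strand (ENSG00000184678), and its longest transcript holds 1801 bases past the stop codon. It was at 6.46, 7.06 and 5.93 FPKM in sh-CFB and 2.66, 3.79 and 3.09 FPKM in sh-NC (0.93 ± 0.16, adjusted p = 0.0171). H2BC5, at chr6:26158146-26171349 on the plus strand (ENSG00000158373), was at 21, 17.9 and 17.8 FPKM in sh-CFB and 10.8, 11.9 and 12.6 FPKM in sh-NC (0.66 ± 0.11, adjusted p = 0.0193). For both genes every sh-CFB library was above every sh-NC library. Neither passed without sh-NC library 1 (limma, adjusted p = 0.0541 for H2BC21 and 0.0646 for H2BC5), and H2BC5 did not pass with voom (adjusted p = 0.0618).

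The list also held 2 H2B copies that did not pass. H2BC12, the most abundant copy in sh-NC, was at 124.7, 90.7 and 100.6 FPKM in sh-CFB and 89.7, 98.6 and 93.7 FPKM in sh-NC, and the groups overlapped (0.15, 95% interval -0.14 to 0.45, adjusted p = 0.5). Its coding sequence is 99% identical to that of H2BC12L on chromosome 21. H2BC4 was at 6.58, 5.50 and 3.21 FPKM in sh-CFB and 3.53, 2.82 and 3.13 FPKM in sh-NC (0.57, 95% interval 0.01 to 1.13, adjusted p = 0.188). Its sh-CFB library 3 lay within the sh-NC range. Of the other copies, H2BC8 was at 1.49, 1.89 and 1.87 FPKM in sh-CFB and 1.39, 1.35 and 1.17 FPKM in sh-NC without overlap, yet did not pass (0.32, adjusted p = 0.256). With the GC and length correction, under which 4.68% of all tested genes were called higher in sh-CFB and 6.10% lower, H2BC8 passed, which made 7 copies higher and 1 lower.

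None of the 4 tested H3 copies and none of the 5 tested H4 copies passed. H3C10, the most abundant H3 copy, was at 4.62, 4.33 and 3.49 FPKM in sh-CFB and 2.52, 3.53 and 4.25 FPKM in sh-NC (0.26 ± 0.20, adjusted p = 0.459). H4C9, the most abundant H4 copy, was at 11.1, 8.57 and 7.88 FPKM in sh-CFB and 7.80, 8.24 and 9.45 FPKM in sh-NC (0.10 ± 0.15, adjusted p = 0.740). Both genes overlapped between groups. H3C2 was at 4.55, 1.23 and 1.02 FPKM in sh-CFB and 2.13, 0.684 and 2.97 FPKM in sh-NC (0.10 ± 0.53, adjusted p = 0.929). H4C3 was at 4.33, 1.18 and 1.29 FPKM in sh-CFB and 1.25, 0.493 and 1.20 FPKM in sh-NC (0.77 ± 0.43, adjusted p = 0.303). In both, sh-CFB library 1 stood well above the other 2 sh-CFB libraries, and without it H4C3 had a log2 fold change of 0.27. The medians were 0.13 over the H3 copies and 0.36 over the H4 copies.

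The copies on the polyadenylated list and the other copies were then set side by side. This is a description without a test, since the list was made with earlier results of these data known. On the list 4 of 6 tested copies rose, with a median log2 fold change of 0.61 and a range of 0.15 to 0.93. Of the other copies 2 of 25 tested rose, with a median of 0.10 and a range of -0.87 to 1.13, and 10 of the 25 lay below 0. Relative to the median tested gene these medians were 0.76 and 0.24. The copies on the list had means of 4.13 to 104.8 FPKM over the 6 libraries. Most of the other tested copies lay below that range, where the pseudocount understates a change. The part of abundance in this contrast was not tested. Some scalings moved the median of all tested genes itself, to 0.02 with median-of-ratios factors and to 0.01 once the trend with GC content and length was removed, where the list stood at 0.79 and the other copies at 0.16. The median of the other copies was -0.12 without sh-CFB library 1, -0.01 without sh-NC library 2 and -0.14 without both replicate 1 libraries, so its sign rested on those libraries, whereas the list stayed between 0.60 and 0.77 without any 1 library.

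An annotation-based split gave a smaller contrast. The 15 tested copies annotated more than 200 bases, or spliced, past the stop codon had a median of 0.26, with 4 that rose, and the remaining 16 had a median of 0.11, with 2 that rose. Among copies with long annotated ends that did not pass were H2AC11, with 1827 bases past the stop codon (-0.06), H2BC9 with 1679 (-0.04), H3C8 with 1569 (0.16) and H2BC15 with 3575 (-0.05). These 4 were named after their values were seen. In the order named, their means over the 6 libraries were 1.46, 0.702, 0.575 and 0.567 FPKM. At such low levels the pseudocount understates a change. Exons of H2BC15 also overlap those of H2AC16 on the same strand.

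**Figure D3:**
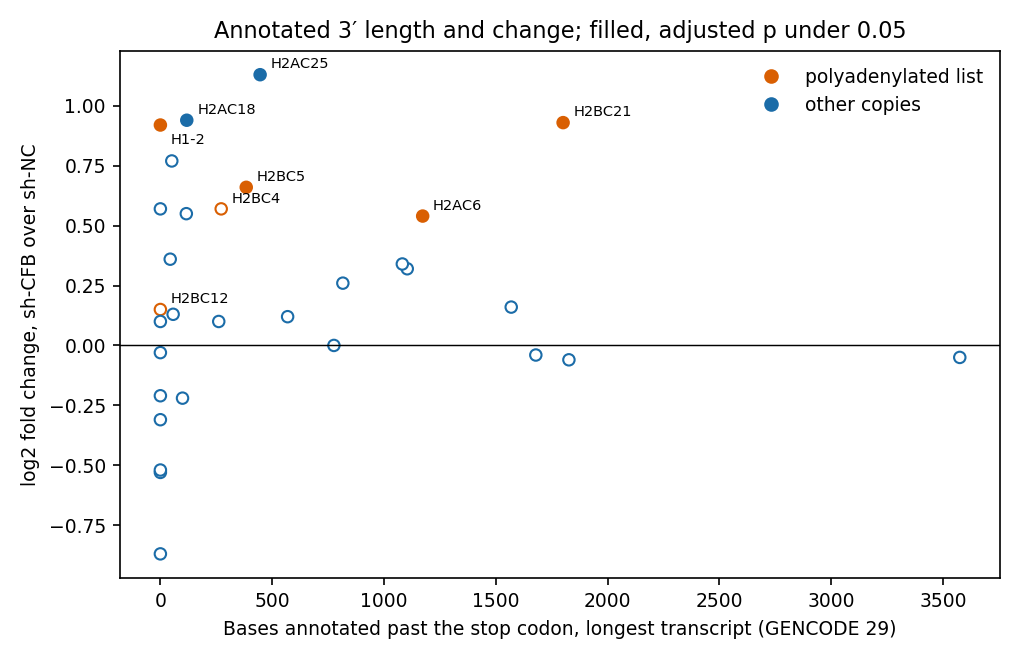
Bases annotated past the stop codon in the longest transcript of each of the 31 tested histone genes (GENCODE 29) against the log2 fold change, sh-CFB over sh-NC; filled points passed at an adjusted p under 0.05 and orange marks the polyadenylated list. H2BC21 (1801 bases) and H1-2 (0 bases, annotated only as far as the stop codon) lie at nearly the same change, 0.93 and 0.92. H2AC11 (1827 bases) and H2BC15 (3575 bases), both at low FPKM, lie near 0.

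Summed over all 56 copies, histone FPKM was 445.1, 354.8 and 346.6 in sh-CFB libraries 1, 2 and 3, against 237.6, 260.2 and 286.3 in sh-NC libraries 1, 2 and 3. The mean sum was 382.1 ± 54.6 in sh-CFB and 261.4 ± 24.4 in sh-NC (SD, n = 3 each), 1.46 times as high in sh-CFB. H1-2 and H2BC12 alone made up 62.2% to 65.0% of the sum in sh-CFB and 62.0% to 65.5% in sh-NC. Without those 2 genes the sum was 139.8 ± 24.9 in sh-CFB and 94.8 ± 12.3 in sh-NC. The polyadenylated list held 72.5%, 75.8% and 76.8% of the histone FPKM in sh-CFB, against 74.7%, 76.2% and 71.5% in sh-NC, so its share overlapped between the groups.

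By type, summed H1 FPKM averaged 140.8 ± 16.6 in sh-CFB and 76.0 ± 11.2 in sh-NC, and summed H2A FPKM 72.1 ± 10.8 in sh-CFB and 43.7 ± 7.37 in sh-NC. Single copies made up most of these differences. The H1 copies other than H1-2 summed to 3.75 ± 2.56 in sh-CFB and 3.45 ± 1.48 in sh-NC. Among H2A copies H2AC25 alone averaged 37.5 ± 7.55 in sh-CFB and 16.8 ± 2.75 in sh-NC. The sums for the other types lay closer together. H2B copies summed to 145.0 ± 21 in sh-CFB and 121.2 ± 5.17 in sh-NC. H3 copies summed to 8.69 ± 2.80 in sh-CFB and 7.76 ± 2.33 in sh-NC, and H4 copies to 15.6 ± 4.64 in sh-CFB and 12.7 ± 0.710 in sh-NC. The H2B copies off the list summed to 9.15 ± 0.888 in sh-CFB and 9.14 ± 1.37 in sh-NC.

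The other copies varied between libraries of one group more than the list did. The median deviation from the gene mean over the 25 tested other copies was 0.32, -0.03 and -0.17 in sh-CFB libraries 1, 2 and 3, against -0.11, -0.16 and 0.17 in sh-NC libraries 1, 2 and 3 (log2). For 14 of the 25 the highest of the 6 libraries was sh-CFB library 1, and for 7 it was sh-NC library 3, the 2 libraries in which GC-rich genes stood highest. For the 6 copies on the list the same median was 0.47, 0.38 and 0.29 in sh-CFB, against -0.36, -0.27 and -0.27 in sh-NC, with a gap between the groups. With the GC and length correction all 6 copies that rose were called (adjusted p 0.00634 to 0.0236), and the part of GC content in the library pattern of the other copies was not tested.

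**Figure D4:**
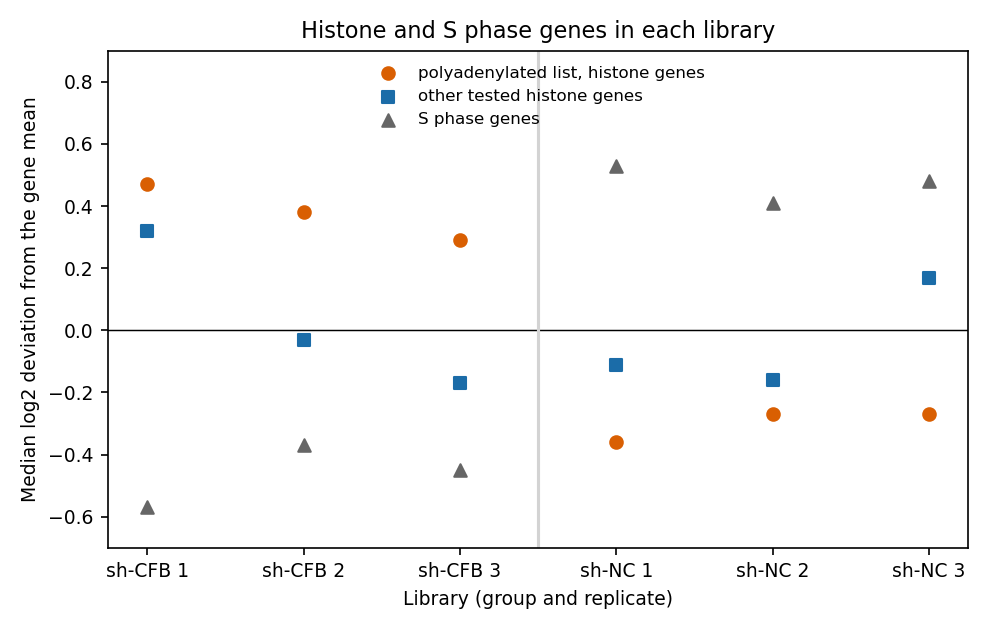
Median log2 deviation from the gene mean in each library for the 6 histone genes on the polyadenylated list, the 25 other tested histone genes and 23 S phase genes. The list lies at 0.29 to 0.47 in sh-CFB and -0.36 to -0.27 in sh-NC, the S phase genes lie the opposite way, and the other copies overlap between the groups.

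Of the 25 copies under the filter, which gave 1.12% to 1.57% of histone FPKM in sh-CFB and 1.34% to 2.13% in sh-NC, 23 had overlapping groups, and the smallest exact permutation p was 0.1. The 2 without overlap were H2AC19, given above, and H4C8. The share among all genes under the filter is not given here. Of the tested genes, which unlike these 25 copies reached the filter, 10.0% were higher in sh-CFB without overlap and 23.6% lower. Among the 31 tested copies 7 were higher without overlap and 0 lower. H4C8 was at 0.388, 0.263 and 0.168 FPKM in sh-CFB, below its 0.492, 0.404 and 0.435 FPKM in sh-NC. At this depth 3 reads on a gene of 500 bases correspond to 0.156 to 0.229 FPKM in sh-CFB and 0.150 to 0.182 FPKM in sh-NC, so changes of copies near that level were not detectable.

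Many H2A and H2B genes lie head to head and share a promoter, which gives pairs of copies whose upstream window is common. H2BC21 rose while its partner H2AC20, 322 bases away on the opposite strand, was at 6.48, 2.97 and 3.16 FPKM in sh-CFB and 3.03, 3.69 and 5.90 FPKM in sh-NC (-0.03, adjusted p = 0.962). The log2 ratio of H2BC21 to H2AC20 was 0.96 higher in sh-CFB, which the libraries did not separate (two-sided exact permutation test, p = 0.2). H2BC4 and H2AC6, 218 bases apart, had similar fitted changes of 0.57 and 0.54, and their ratio differed by 0.03 (same exact test, p = 0.9). H2BC26, the partner of H2AC25, stayed under the filter, at 0.629, 0.393 and 0.440 FPKM in sh-CFB and 0.397, 0.306 and 0.437 FPKM in sh-NC.

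Promoters are shown for 1 copy of each type that had a copy that rose, the one with the highest fitted change in that type, because the copies that rose differ in their promoter elements. Each is the 250 bases before the start in RefSeq on GRCh38.p14, on the gene's strand, 5′ to 3′. Capitals mark the octamer ATTTGCAT, bound by POU2F1 (OCT1) in H2B promoters, the CCAAT box and the TATA box TATAAA, each on either strand.
H2AC25 (chr1:228457874-228458123, minus strand): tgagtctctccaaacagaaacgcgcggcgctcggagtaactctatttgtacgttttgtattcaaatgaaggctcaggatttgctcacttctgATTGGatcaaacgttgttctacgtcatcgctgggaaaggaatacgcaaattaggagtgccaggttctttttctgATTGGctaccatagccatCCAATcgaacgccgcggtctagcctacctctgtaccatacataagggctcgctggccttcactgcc
H2BC21 (chr1:149886683-149886932, minus strand): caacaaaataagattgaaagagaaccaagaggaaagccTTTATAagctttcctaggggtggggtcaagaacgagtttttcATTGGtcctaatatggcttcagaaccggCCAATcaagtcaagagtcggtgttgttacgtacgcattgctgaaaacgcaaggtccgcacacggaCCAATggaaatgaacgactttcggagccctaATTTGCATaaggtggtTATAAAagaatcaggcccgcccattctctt
H1-2 (chr6:26056471-26056720, minus strand): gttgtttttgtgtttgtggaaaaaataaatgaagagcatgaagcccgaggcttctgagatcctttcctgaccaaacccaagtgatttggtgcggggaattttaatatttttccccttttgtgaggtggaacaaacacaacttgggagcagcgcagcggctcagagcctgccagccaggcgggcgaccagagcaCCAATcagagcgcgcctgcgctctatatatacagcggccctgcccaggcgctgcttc
The window of H2BC21 overlaps that of H2AC20 on the opposite strand almost fully. The octamer (or its reverse, ATGCAAAT) was found in 10 of 14 H2A and 12 of 16 H2B windows and in none of the 4 H1, 7 H3 and 10 H4 windows, beside 1.66% of 27305 RefSeq promoters of that length. Head-to-head pairs share much of their windows, so a shared site counts for both copies. Of the 6 copies that rose, H2BC21 and H2AC6 held it, as did their partners H2AC20 and H2BC4, which did not pass. CCAAT or ATTGG was found in 82.4% of the 51 histone windows, beside 33.0% of all, and TATAAA or TTTATA in 64.7%, beside 11.1%. The absence of a match says only that those letters are not in the window.

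Genes that act on histone mRNA or histone supply were described from lists, with no test over a list. Beside the counts below, 5.71% of all tested genes fell and 1.74% rose, with a median of -0.15. The S phase list, DNA replication genes that mark cells copying their DNA, had 17 of 23 tested members that fell and none that rose, with a median of -0.91. FEN1, the flap endonuclease, was at 7.86, 9.46 and 10.7 FPKM in sh-CFB and 27.9, 29.3 and 30.6 FPKM in sh-NC (-1.61 ± 0.13, adjusted p = 0.00613). MCM3, a subunit of the replicative helicase, was at 9.42, 12.9 and 12 FPKM in sh-CFB and 38.4, 32.0 and 32.3 FPKM in sh-NC (-1.55 ± 0.14, adjusted p = 0.00669). In both genes the sh-CFB libraries lay far below the sh-NC libraries. In bulk RNA, fewer cells in S phase and less of these mRNAs per cell cannot be told apart. With GC content and length corrected for, 17 of the S phase genes fell as well.

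In the list for histone mRNA 3′ end formation and decay 5 of 30 tested members fell and none rose, with a median of -0.37. SLBP was at 21.4, 23.6 and 26.0 FPKM in sh-CFB and 40.9, 38.4 and 43.5 FPKM in sh-NC (-0.78 ± 0.11, adjusted p = 0.0120). CPSF3 was at 5.73, 6.40 and 7.72 FPKM in sh-CFB and 13.0, 12.6 and 13.2 FPKM in sh-NC (-0.93 ± 0.13, adjusted p = 0.0129). For both the groups were well apart. CSTF2, the CstF subunit that binds RNA downstream of poly(A) sites and is also part of the histone cleavage complex, fell by 1.36 (adjusted p = 0.0111). SRRT (ARS2), which binds the cap-binding complex and acts in histone mRNA processing, fell by 0.97 (adjusted p = 0.0133). CSTF3 also fell (-0.53, adjusted p = 0.0439) but did not pass after the GC and length correction (-0.31, adjusted p = 0.318). Of 10 genes of the canonical poly(A) machinery the CFIm subunits CPSF6 (-0.69, adjusted p = 0.0412) and CPSF7 (-0.54, adjusted p = 0.0370) fell and none rose, and CPSF6 did not pass with GC content and length corrected for (adjusted p = 0.0562).

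Of 13 tested activators of histone transcription 3 fell and none rose (median -0.30). E2F1, the S phase transcription factor, was at 18.8, 16.1 and 15.2 FPKM in sh-CFB and 30.6, 32.3 and 37.7 FPKM in sh-NC (-0.98, adjusted p = 0.0106). CDK2, the kinase that with cyclin E phosphorylates the histone gene coactivator NPAT, was at 4.14, 5.31 and 5.27 FPKM in sh-CFB and 9.48, 8.40 and 8.08 FPKM in sh-NC (-0.76, adjusted p = 0.0217). LDHA, a glycolytic enzyme also reported as a coactivator of H2B transcription, fell by 0.57 (adjusted p = 0.0148), but not past the threshold after the GC and length correction (-0.30, adjusted p = 0.206).

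Histone chaperones and import factors fell in 7 of 20 tested members and rose in none (median -0.55). The largest changes among them were in CHAF1A, the large subunit of the CAF-1 complex that deposits H3 and H4 behind the replication fork (-1.12 ± 0.14, adjusted p = 0.0106), and NASP, a chaperone of soluble H3 and H4 (-1.11 ± 0.13, adjusted p = 0.0102). CHAF1A was at 6.20, 7.02 and 8.47 FPKM in sh-CFB and 17.8, 15.0 and 15.8 FPKM in sh-NC. Replication-independent histone variants, most of which come from ordinary polyadenylated genes outside the clusters, fell in 3 of 12 tested members and rose in none (median -0.27). H2AZ1, the H2A.Z variant gene, was at 43.4, 49.9 and 46.3 FPKM in sh-CFB and 87.4, 86.5 and 94.9 FPKM in sh-NC (-0.94 ± 0.09, adjusted p = 0.00727), the opposite direction to the 6 cluster genes that rose. MACROH2A1 (-0.62, adjusted p = 0.0299) and CENPA, the centromeric H3 variant (-0.54, adjusted p = 0.0284), also fell, and neither passed after the GC and length correction (adjusted p = 0.241 and 0.116). The variant H2AX passed only after that correction (-0.60, adjusted p = 0.0179). Relative to the median tested gene the S phase list stood at -0.76, chaperones and import at -0.40 and 3′ end formation and decay at -0.22. Activators stood at -0.16, histone variants at -0.13 and the canonical poly(A) machinery at 0.01. After GC and length correction the medians ran from -0.70 for S phase genes to -0.04 for variants and 0.10 for the poly(A) machinery. The correction added calls in some lists and removed them in others. With it 8 members fell for 3′ end formation and decay and 8 for chaperones and import. Of the activators 2 fell, of the variants 2 and of the poly(A) machinery 1.

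**Figure D5:**
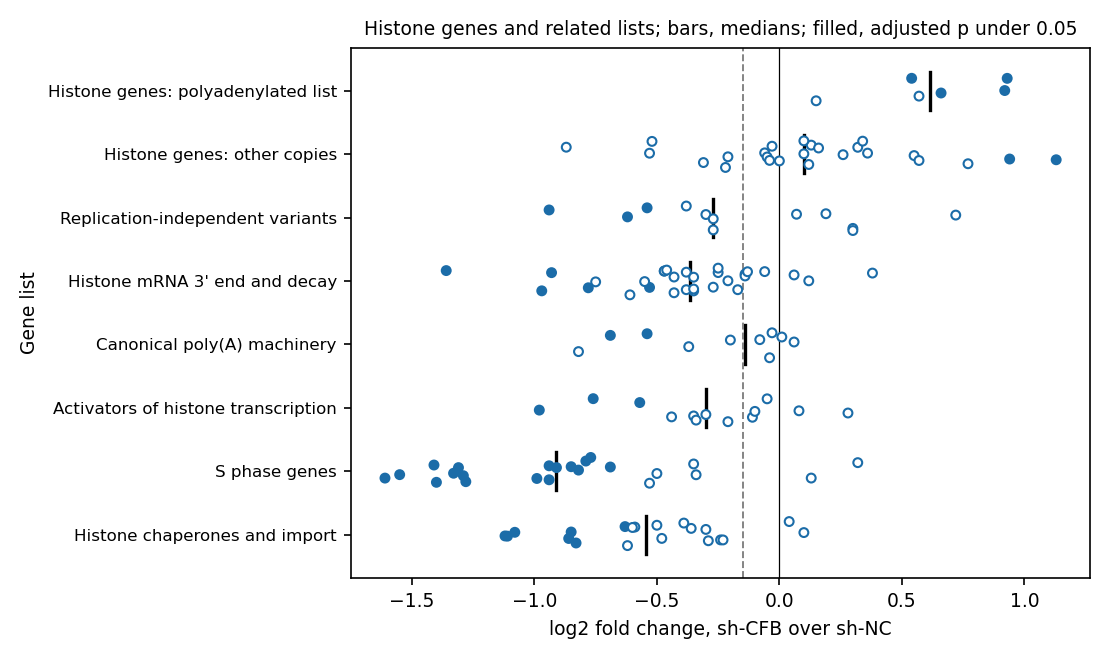
Log2 fold change, sh-CFB over sh-NC, of tested histone genes on the polyadenylated list, the other tested copies and the tested genes of 6 related lists; bars are medians, filled points passed at an adjusted p under 0.05 and the dashed line is the median of all tested genes. The medians run from 0.61 for the polyadenylated list to -0.91 for the S phase genes.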

How the data were processed

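One table gave FPKM for 28495 genes in 6 libraries. The submitters' processing notes name featureCounts 2.0.1, STAR 2.7.3a, Trimmomatic 0.39 and FastQC 0.11.9, with GRCh38 as the build. The deposited FPKM were made by the authors, and the sources used here give neither the strand setting, nor the treatment of reads with several matches, nor the annotation. Low FPKM steps gave each library's read total. For each gene a length was then searched that gave whole reads within 0.02 in every library. Such a length was found for 100% of genes, which is no check on the lengths because the search aimed at it. Of these lengths 87.5% were within a set tolerance of the annotated length. The lengths and reads of genes with very few reads are ambiguous. Intervals and limits from reads cover counting error only.

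Ensembl IDs were matched to current symbols (22513 genes), with 2 members named through GENCODE 29 and older names. Genes with a mean of at least 0.5 FPKM were tested with limma 3.58.1 (R 4.3.3), with a trend, on log2(FPKM + 0.5), and p-values were adjusted over all tested genes. That pseudocount understates the change of low genes. Single values had two-sided exact permutation tests. Alternatives changed the pseudocount, filter, scaling, test, block and libraries. Samples with the same number did not deviate together, so no block was used.

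The histone genes and gene lists were chosen with earlier results of these data known. Described in full were each histone gene that passed, each on the polyadenylated list and the 2 most abundant of each type. In each related list up to 2 changed genes per direction were to be named, and further changed genes were added after their values were seen. Stem-loops came from GENCODE 29 transcripts and promoters from RefSeq. A marker of the cell line is not reported here.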

Additional observations from a re-analysis of the deposited data

How the results depend on the processing

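The copies that rose stayed above 0 in every alternative that gave them a value (H2AC18 had none at a mean FPKM of at least 1), but the count that passed did not hold. With the histone genes given first and all genes after them, the genes called numbered 2 and 324 without a filter, 2 and 133 with median-of-ratios factors, 3 and 681 with voom on recovered reads, and 0 to 5 and 20 to 540 without 1 library, against 6 and 929. Of the genes on the related lists 37 passed, 15 with median-of-ratios factors and 6 to 32 without 1 library. The 2 libraries whose removal left 0 histone genes were sh-CFB library 2 and sh-NC library 2. With the replicate number as a block (replicate block), alone or with the GC and length correction, 0 histone genes, 0 genes in all and 0 related genes passed, and the 6 copies had adjusted p of 0.159 to 0.237, or 0.0939 to 0.112 with the correction. Samples sharing a number had deviations correlated at -0.54, 0.07 and -0.45, and not every sample correlated best with its own number, so they share only a number. The splits of higher against lower calls were 465 against 636 with quantile normalization and 580 against 757 with the GC and length correction, against 217 and 712.

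The median of the polyadenylated list was 0.61, and 0.81 with median-of-ratios factors, 0.76 with quantile normalization, 0.79 with the GC and length correction with or without the replicate block, 0.26 for the annotation-based list and 0.60 to 0.77 without 1 library. Without both replicate 1 libraries the medians were -0.05 over all tested copies, -0.14 over the other copies and -0.07 over H2B, and the summed FPKM changed by 0.36 on the log2 scale, against 0.55, or 0.77 with median-of-ratios factors. Without 1 library the medians ran from -0.34 to 0.56 for H1, -0.19 to 0.21 for H2A and -0.20 to 0.36 for H3. The H2A median was 0.21 without a filter and 0.20 with the GC and length correction, with or without the replicate block. The H2B median was -0.04 without a filter, 0.44 at a mean FPKM of at least 1 and 0.33 with median-of-ratios factors.

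Copies that had not passed changed sign in some fits. With the GC and length correction, with or without the replicate block, H2BC12 stood at -0.04, H1-4 at -0.02 and H3C2 at -0.04. Without both replicate 1 libraries H2BC12 was at -0.01, H1-4 at -0.19, H3C2 at -0.32 and H4C9 at -0.10. Without 1 library the values ran from -0.34 to 0.56 for H1-4, -0.45 to 0.42 for H3C2 and -0.04 to 0.19 for H4C9, lowest without sh-CFB library 1, and without sh-NC library 2 H1-4 was at -0.14 and H3C2 at -0.35. The cause was not tested for any of these.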
